A study of Homo sapiens with 26 samples.

Results

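The genes described here are 45 human genes whose products carry cells through mitosis. They were chosen by name, from lists of cyclins, mitotic kinases, checkpoint, kinetochore, motor, spindle and cytokinesis factors, among the 63086 genes counted in each of 26 RNA-seq libraries. All 45 symbols were matched to 1 gene identifier each, and 43 passed the filter on low counts and were tested among 9099 protein-coding genes. The libraries came from HCT116, a line of human colorectal carcinoma cells. The engineered cells shared the genotype IGF2BP2 KO, IGF2BP3 KO, Tet-OsTIR1-PURO, and expressed from a lentivirus mCherry-IGF2BP1 WT, its RQ mutant (arginines of a linker replaced by glutamine), or the phosphomimetic mutants S181E or Y396E, in which a serine or a tyrosine was replaced by glutamic acid. IGF2BP1 is an RNA-binding protein that controls the fate of the mRNAs it binds. Each of the 4 populations was grown in 3 independently plated dishes with PBS (control conditions) and 3 with 500 µM sodium arsenite for 2 h, an oxidative stress. Parental cells, labelled only as HCT116, gave 1 library per treatment. The knockouts were made in cells sorted as single-cell clones and the transgene carriers were sorted through a narrow mCherry gate, so that each genotype was represented by 1 sorted population and a difference between genotypes cannot be told apart from a difference between those populations. The RNA was poly(A) RNA from clarified cell lysate, so that RNA pelleted with insoluble material was not measured. P-values measure the spread between dishes of 1 population.

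Mitosis is started by cyclin B bound to the kinase CDK1, which CDC25 phosphatases switch on, and is ended when the anaphase-promoting complex with its activator CDC20 marks cyclin B and securin for destruction. In between, Polo and Aurora kinases build the spindle, kinetochores attach chromosomes to it, and the spindle assembly checkpoint holds anaphase until every chromosome is attached. In dividing cells most of these mRNAs are made in G2 phase and mitosis and are low in G1, so in a bulk sample a larger fraction of cells in G2 phase or mitosis and more RNA per such cell cannot be told apart.

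The libraries held 22508145 to 50834401 counts. Levels are given as CPM, the count of a gene scaled to a common total of the tested genes with TMM factors. IGF2BP1 mRNA was at 0.347 and 0.645 CPM in the parental control and arsenite libraries, against means of 12.1 to 47.1 in the 8 engineered groups, as the labels have it. IGF2BP2 and IGF2BP3 mRNA were still counted in the engineered cells, at means of 65.9 to 88.1 and 112 to 164 CPM, so mRNA level is no check of these knockouts. The 3 IGF2BP mRNAs were not level between populations. Against WT in control, 2 were called higher in S181E and 2 in Y396E (largest log2 change 0.63 and 0.48). In arsenite 1 was called higher in each mutant (largest 0.69 in RQ, 0.57 in S181E and 0.57 in Y396E). Arsenite against control raised 1 of the 3 within each population, by a log2 change from 1.21 (S181E) to 1.71 (RQ). It lowered 1 in S181E and 1 in Y396E. The group means of IGF2BP2 and IGF2BP3 above are too close together for rises of that size, or for 0.63 and 0.69. These larger changes therefore belong to IGF2BP1, the transgene. How far the differences in IGF2BP mRNA bear on those between populations or treatments was not tested. All 5 epithelial markers were present (summed level 2807 to 5530 CPM), whereas fibroblast, leukocyte and endothelial markers summed to at most 11.5, 1.13 and 0.926 CPM. These lists were not uniformly empty. PTPRC and COL1A2 were at 0 in 25 and 24 of the 26 libraries, but CD14, LYZ and VWF in only 3, 4 and 1. COL1A1 was counted in every library, at 6.55 to 11.5 CPM. Replicate 3 of Y396E in arsenite stood apart, with 13897 genes detected against 20850 to 23473 in the other libraries. Transcripts of the mitochondrial genome took 21.1 to 27.9% of the counts in WT and RQ control libraries, 11.7 to 17.1% in S181E and Y396E control libraries and 7.55 to 13.5% in the 12 engineered arsenite libraries, and so were highest where the mitosis genes below were lowest. Its part in the results was not tested.

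The level of the mitosis genes ran from low in WT and RQ control cells to high in every arsenite group. Summed over the 45 genes, the WT control libraries had 2674, 2548 and 2597 CPM and the RQ control libraries 2591, 2435 and 2536 CPM. The S181E control libraries had 3551, 3538 and 3543 CPM and the Y396E control libraries 3463, 3523 and 3621 CPM, all above the WT and RQ control libraries. The WT arsenite libraries had 5594, 5643 and 5652 CPM and the RQ arsenite libraries 5441, 5529 and 5459 CPM. S181E reached 6114, 6066 and 6004 CPM and Y396E 5929, 5994 and 6115 CPM. The parental libraries had 3137 CPM in control conditions, between the WT and S181E groups, and 5734 CPM in arsenite. No control library overlapped with any arsenite library.

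**Figure D1:**
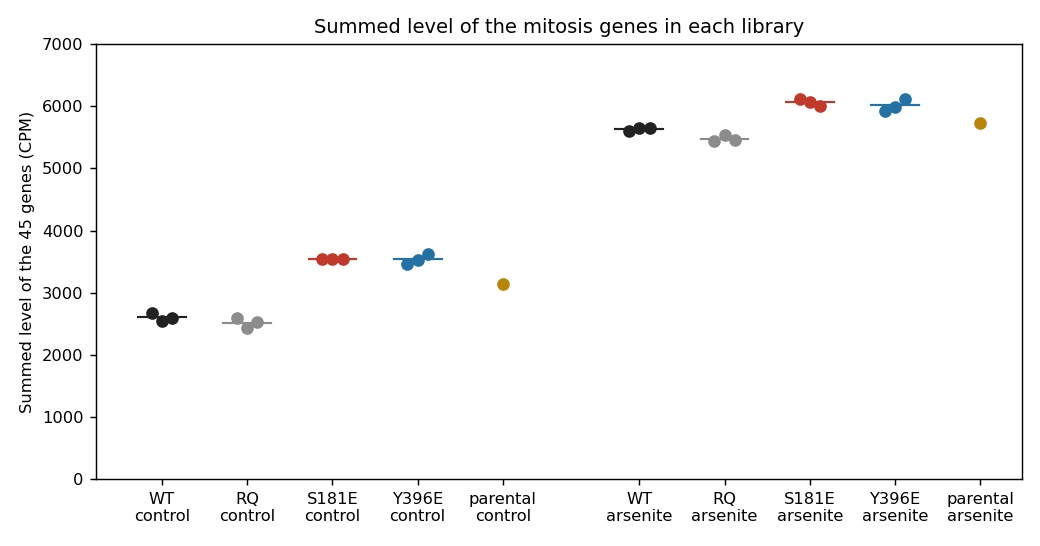
Summed level of the 45 mitosis genes (CPM, y axis) in each of the 26 libraries, by population and treatment (x axis). Points are libraries and lines are group means (n = 3, parental n = 1). WT and RQ control libraries sit between 2435 and 2674 CPM, S181E and Y396E control libraries between 3463 and 3621, and the engineered arsenite libraries between 5441 and 6115.

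Per kilobase of annotated exon, the levels in WT control cells covered a wide range. The highest were UBE2C, the ubiquitin-conjugating enzyme of the anaphase-promoting complex (114 ± 5.82 CPM per kb, SD, n = 3), CDC20 (96.1 ± 5.61), BIRC5 (93.1 ± 4.2) and PTTG1, which encodes securin (92.5 ± 8.0). The last 3 of these lay within 1 SD of each other. The lowest tested were ASPM and CENPE, at 0.921 ± 0.0221 and 0.850 ± 0.102 CPM per kb, also within their spread of each other. In WT arsenite cells CDC20 was highest (224 ± 5.24), followed by CCNB1 (149 ± 1.03) and UBE2C (139 ± 3.17), while BIRC5 was at 84.7 ± 0.360 and PTTG1 at 97.0 ± 3.90. The exon length used here is that of all annotated isoforms together, so that a gene with rarely used exons reads low.

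PRC1 and NUSAP1, which bundle spindle microtubules, could not be measured. PRC1 had 17 to 148 counts per library and shares 65.2% of its exonic bases on the same strand with a readthrough gene, and NUSAP1 had 0 to 2 counts and shares 98.3%. Reads that fall on more than 1 gene were not assigned in these counts. BUB1B and SPAG5 share 10.5% and 12.8% of their exonic bases in the same way and may be undercounted.

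Promoters of mitosis genes often carry a CHR (cell cycle genes homology region, TTTGAA or TTTAAA), bound by the MuvB complex with B-MYB or FOXM1 in G2 phase and with repressors in G1, and CCAAT boxes bound by NF-Y. RefSeq promoter windows of GRCh38.p14, from 250 bases before to 50 after a start, were found for 39 of the 45 genes, in 50 entries. BUB3, BIRC5, UBE2C, AURKA, TTK and TPX2 had no entry. The following 130 bases before the start, in the direction of transcription with CHR and CCAAT letters of either strand in capitals, are shown for 5 genes whose mRNA rose in arsenite (CCNB1, CCNB2, PLK1, CDC20 and KIF20A) and for PTTG1 and CENPA, whose mRNA did not pass the test there.
CCNB1, chr5:69167020-69167149, plus strand: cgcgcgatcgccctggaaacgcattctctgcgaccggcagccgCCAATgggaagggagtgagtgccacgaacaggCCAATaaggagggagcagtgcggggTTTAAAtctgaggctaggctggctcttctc
CCNB2, chr15:59105016-59105145, plus strand: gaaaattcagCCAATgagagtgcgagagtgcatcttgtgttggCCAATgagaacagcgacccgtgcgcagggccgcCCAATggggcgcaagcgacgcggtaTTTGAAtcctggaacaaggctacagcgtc
PLK1, chr16:23678759-23678888, plus strand: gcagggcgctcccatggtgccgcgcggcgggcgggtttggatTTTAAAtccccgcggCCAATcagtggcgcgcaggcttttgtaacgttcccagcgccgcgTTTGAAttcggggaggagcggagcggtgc
CDC20, chr1:43358851-43358980, plus strand: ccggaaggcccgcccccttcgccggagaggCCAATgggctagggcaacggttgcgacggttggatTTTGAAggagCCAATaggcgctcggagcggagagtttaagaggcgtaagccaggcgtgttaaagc
KIF20A, chr5:138178982-138179111, plus strand: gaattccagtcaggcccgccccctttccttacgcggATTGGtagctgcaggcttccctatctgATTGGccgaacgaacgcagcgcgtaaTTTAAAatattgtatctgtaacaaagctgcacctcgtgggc
PTTG1, chr5:160421725-160421854, plus strand: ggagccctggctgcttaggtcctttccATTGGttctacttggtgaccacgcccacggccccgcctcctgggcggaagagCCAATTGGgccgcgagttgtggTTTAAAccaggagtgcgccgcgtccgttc
CENPA, chr2:26785926-26786055, plus strand: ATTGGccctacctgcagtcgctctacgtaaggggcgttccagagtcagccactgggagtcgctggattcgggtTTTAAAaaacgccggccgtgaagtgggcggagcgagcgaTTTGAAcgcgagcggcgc

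In CCNB1, CCNB2 and PTTG1 a CHR begins at position -30, -29 and -29 from the start, downstream of CCAAT boxes. Over all entries TTTGAA was present in 60.0% of the mitosis gene promoters and 15.2% of all 35116 promoters of the same length, TTTAAA in 36.0% and 12.2%, and CCAAT in 74.0% and 34.6%. Either form of the CHR was present in 78.0% of the mitosis gene promoters and 23.99% of all promoters. Counted by gene it was 34 of 39. Some genes have several entries, so that count cannot be set against the shares of promoters. Entries for several starts of 1 gene overlap in part, and a palindromic stretch such as CCAATTGG was counted on both strands. Of the 62 CHR matches 23 began in the last 50 bases before the start, and of the 72 CCAAT matches 35 began between positions -100 and -51. Both kinds of gene in the small picked set above carry these letters, those that rose in arsenite and those that did not. Among all tested genes with an entry, the 32 with a CHR had a median log2 change of 1.83 in WT cells in arsenite and the 5 without 1.05. For CCAAT the medians were 1.32 for the 29 genes with it and 1.93 for the 8 without. A link between motif and change was not tested. A match is a description of the letters and not a measured binding site.

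**Figure D2:**
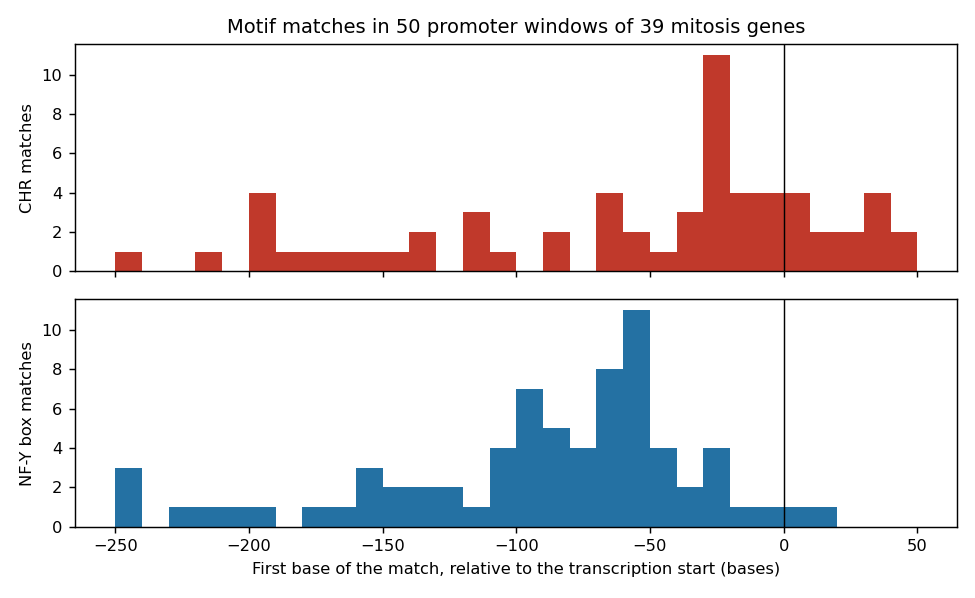
Number of motif matches (y axes, bins of 10 bases) by position of their first base relative to the transcription start (x axis, bases) in 50 promoter windows of 39 mitosis genes, for the CHR (upper panel, 62 matches) and the NF-Y box (lower panel, 72 matches). CHR matches peak just before the start and NF-Y box matches between 100 and 51 bases before it.

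The comparison of arsenite with control conditions asks how stress changed these mRNAs. In WT cells 39 of the 43 tested mitosis genes rose and none fell, with a median log2 change of 1.54 against -0.01 over all genes tested. A gene is called here when edgeR's quasi-likelihood test gives a Benjamini-Hochberg adjusted p below 0.05 over all 9099 genes and the fold is above 1.2. By this rule 36.3% of all genes were called higher and 35.9% lower in the same comparison. Of the 43 genes 7 (CDC25C, TTK, SGO2, CENPE, NDC80, HMMR and ASPM) passed the filter on low counts only with the arsenite libraries, where they are high, and CDC25C passed in none of the 12 control libraries, so that their passing is not independent of the change. Among the other 36 genes 32 rose and none fell (median 1.22). With a filter at 1 CPM in 3 libraries, 39 were called higher. The number of mitosis genes tested and the share of all genes are not given for that filter, so this count speaks only to stability. The rise was uneven. It spanned log2 changes from 0.28 for UBE2C to 2.75 for KIF20A, and the other 4 genes stayed between -0.14 and 0.07.

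All 6 genes of the cyclin, CDK1 and CDC25 group rose in WT cells. CDC25C (ENSG00000158402.21, hg38 chr5:138285269-138338355, minus strand), a phosphatase that activates CDK1, had 4.75, 4.2 and 5.23 CPM in control and 22.5, 25.0 and 25.7 CPM in arsenite. The groups were far apart, with a log2 change of 2.36 ± 0.15 (SE, adjusted p = 5.97e-13, edgeR). CDC25C, like TTK, SGO2, CENPE and HMMR below, passed the filter only with the arsenite libraries. The p-values of these genes are therefore not independent support for the rise. The mitotic cyclins CCNB1, CCNA2 and CCNB2 changed by 1.32, 1.05 and 0.77, the kinase CDK1 by 0.82, and the second phosphatase CDC25B by 0.75. Of the kinases 4 of 4 rose, but not BIRC5, the survivin subunit that localises Aurora B. AURKA (ENSG00000087586.18, chr20:56369389-56392337, minus strand), the centrosomal Aurora kinase, had 43.2, 41.5 and 37.9 CPM in control and 127, 129 and 125 CPM in arsenite. Its groups did not overlap, and the log2 change was 1.63 ± 0.06 (adjusted p = 3.17e-18, edgeR). The centrosome kinase NEK2 changed by 1.54, the Polo kinase PLK1 by 1.21 and AURKB by 0.95, whereas BIRC5 was at -0.14 ± 0.04, below the fold threshold.

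Among the 5 spindle assembly checkpoint genes 4 rose. TTK (ENSG00000112742.10, chr6:80003887-80042527, plus strand), the MPS1 kinase at the head of the checkpoint, had 11.9, 11.9 and 12.2 CPM in control and 75.1, 78.1 and 78.0 CPM in arsenite. That is a log2 change of 2.68 ± 0.10 (adjusted p = 1.62e-17, edgeR) with no overlap of the groups. BUB1 and BUB1B, which encode a checkpoint kinase and its relative BubR1, changed by 1.99 and 1.89. The WD-repeat partner BUB3 changed by only 0.31, and MAD2L1, the MAD2 protein that holds CDC20 inactive, was at -0.02 ± 0.04. In the anaphase group 5 of 6 rose. SGO2 (ENSG00000163535.18, chr2:200526167-200584096, plus strand), a shugoshin that protects centromeric cohesion, had 8.68, 9.20 and 8.19 CPM in control and 50.4, 52.8 and 47.6 CPM in arsenite, a log2 change of 2.53 ± 0.08 (adjusted p = 3.73e-19, edgeR). The arsenite libraries were all above the control libraries. CDC20 changed by 1.22, the separase gene ESPL1 by 1.15, SGO1 by 0.51 and UBE2C by 0.28, whereas PTTG1 was at 0.07 ± 0.06.

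Among centromere and kinetochore genes 4 of 5 rose. CENPE (ENSG00000138778.14, chr4:103105349-103198445, minus strand), a kinesin that carries chromosomes to the spindle equator, had 7.57, 8.74 and 6.91 CPM in control and 37.3, 38.1 and 36.7 CPM in arsenite. Its log2 change was 2.28 ± 0.10 (adjusted p = 3.22e-16, edgeR) and the groups did not overlap. NDC80 and NUF2, partners in the complex that grips microtubules, changed by 2.07 and 0.95, and CENPF by 1.15. CENPA, the histone H3 variant of centromeres, was at -0.02 ± 0.08. All 7 kinesin genes rose. KIF20A (ENSG00000112984.12, chr5:138179112-138187723, plus strand), a motor of the central spindle needed for cytokinesis, had 20.5, 19.5 and 19.8 CPM in control and 131, 135 and 136 CPM in arsenite, a log2 change of 2.75 ± 0.07 (adjusted p = 3e-21, edgeR). This was the largest change among the 43 tested mitosis genes. The spindle pole motor KIF11 changed by 2.21, KIF18A by 2.19, KIF2C by 1.93, KIF14 by 1.85, KIF20B by 1.81 and KIF23 by 1.44.

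All 5 tested spindle assembly genes and all 4 genes of chromosome structure and cytokinesis rose. HMMR (ENSG00000072571.20, chr5:163460366-163491941, plus strand), a spindle microtubule-associated protein, had 13.7, 11.1 and 12.6 CPM in control and 62.8, 60.4 and 62.2 CPM in arsenite, a log2 change of 2.31 ± 0.08 (adjusted p = 3.05e-18, edgeR). The groups did not overlap. TPX2, the activator of Aurora A, changed by 2.17, the spindle pole protein ASPM by 2.12, DLGAP5 by 2.06 and SPAG5 by 1.14. TOP2A (ENSG00000131747.15, chr17:40388525-40417896, minus strand), the topoisomerase that untangles sister chromatids, had 33.0, 33.9 and 29.5 CPM in control and 174, 181.1 and 186 CPM in arsenite. With a log2 change of 2.49 ± 0.06 (adjusted p = 9.21e-22, edgeR) it was far outside the spread of the groups. The condensin subunit NCAPG changed by 2.26, the cytokinetic ring protein ANLN by 1.94 and the RhoA activator ECT2 by 1.16.

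The other populations showed the rise as well. In RQ cells 38 of 43 rose and none fell (median log2 change 1.61, all genes 37.1% higher and 35.8% lower). In S181E cells 36 rose and none fell, with a median of 1.09 (all genes 32% higher and 33.3% lower), and in Y396E cells 36 rose and none fell, with a median of 1.05 (all genes 32.9% higher and 32.9% lower). KIF20A, TTK, TOP2A and SGO2 changed by 2.05, 2.15, 2.09 and 2.04 in S181E cells and by 2.00, 2.15, 2.14 and 2.07 in Y396E cells. Among the 36 genes that did not need the arsenite libraries to pass the filter, 31 rose in RQ, 29 in S181E and 29 in Y396E cells (medians 1.23, 0.84 and 0.86) and none fell. BIRC5, MAD2L1, CENPA and PTTG1 were not called in any of the 4 populations, nor was BUB3 in S181E (0.12) or Y396E (0.10). UBE2C was not called in RQ, S181E or Y396E, nor SGO1 in S181E or Y396E. In S181E and Y396E cells BIRC5 was at -0.25 and -0.25, MAD2L1 at -0.18 and -0.17, and CENPA at -0.24 and -0.13. PTTG1 was at -0.02 and 0.06. In the parental cells, with 1 library per treatment and so without any replicate check, 36 of the 43 genes were more than 1.2-fold higher in arsenite and none was more than 1.2-fold lower, against 34.9% of all genes higher. The parental median was 1.28 on the log2 scale, and the 5 lowest were BIRC5, CENPA, MAD2L1, PTTG1 and UBE2C, at -0.26, -0.23, -0.17, -0.13 and 0.01.

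**Figure D3:**
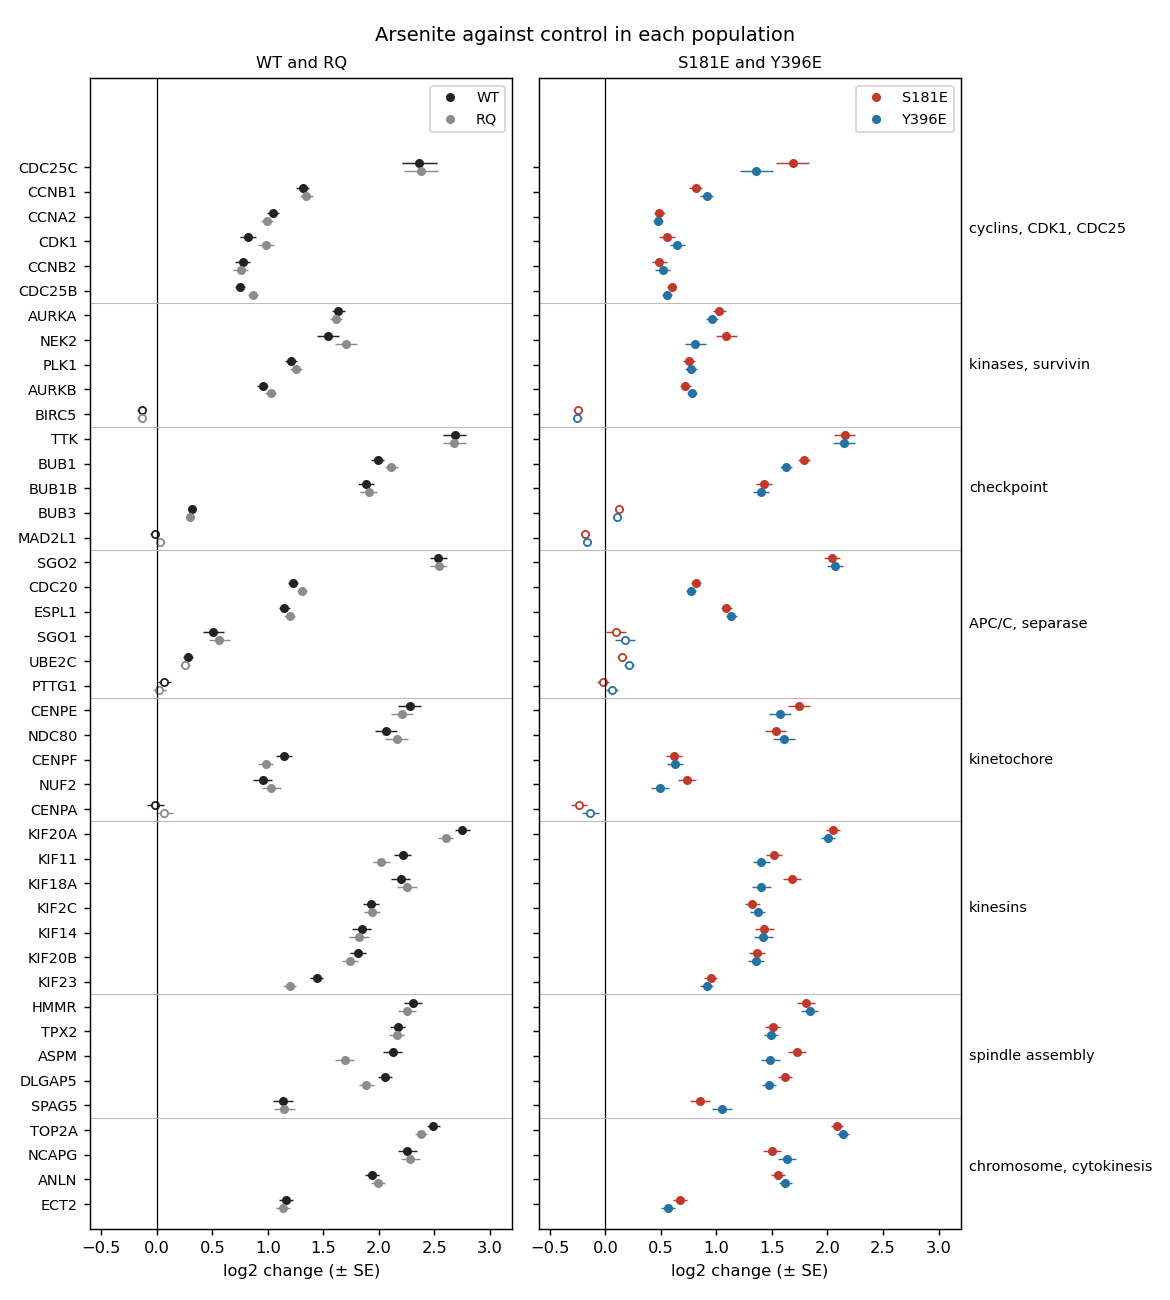
Log2 change of arsenite against control (x axis, ± SE, n = 3 against 3) for the 43 tested mitosis genes (rows, grouped by role), in WT and RQ cells (left) and S181E and Y396E cells (right). Filled points were called, open points were not. BIRC5, MAD2L1, PTTG1 and CENPA were not called in any of the 4 populations and lie between -0.25 and 0.07. Most other genes lie further right in WT and RQ cells than in S181E and Y396E cells.

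The size of the arsenite change moved with coding length, over all genes and within the mitosis genes. Ordered by the coding length of the MANE Select transcript and cut into 4 equal parts at 861, 1386 and 2234 bases, all tested genes had median log2 changes of -0.50, -0.08, 0.26 and 0.54 from the shortest to the longest in WT cells. The mitosis genes in the same parts (5, 8, 9 and 21 genes) had medians of -0.02, 1.00, 1.22 and 2.06. The 7 genes that passed the filter only with the arsenite libraries all have coding lengths above 1386 bases. They are included in the values for the mitosis genes here, and raise the parts with long genes by the way they were admitted. BIRC5, MAD2L1, CENPA and PTTG1, which were not called, have coding lengths of 426, 615, 420 and 606 bases and are 4 of the 5 genes in the shortest part. The fifth is UBE2C (537 bases), which had the smallest change among the called genes. Spearman's rho between coding length and change, across genes that share libraries and are not independent replicates, was 0.551 over 9059 genes and 0.625 over the 43. All 43 mitosis genes were above the median of all genes in their own length part. With transcript length in place of coding length rho was 0.205 over all genes and 0.344 over the 43, and with GC content it was -0.05 and -0.39. When GC content and coding length were regressed out of every library, an alternative chosen after seeing the data, all 43 genes were called higher in WT cells with a median of 1.19, against 0.07 over all genes. That correction thus moved the 4 short genes from not called to called higher. The share of all genes called under it is not given.

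**Figure D4:**
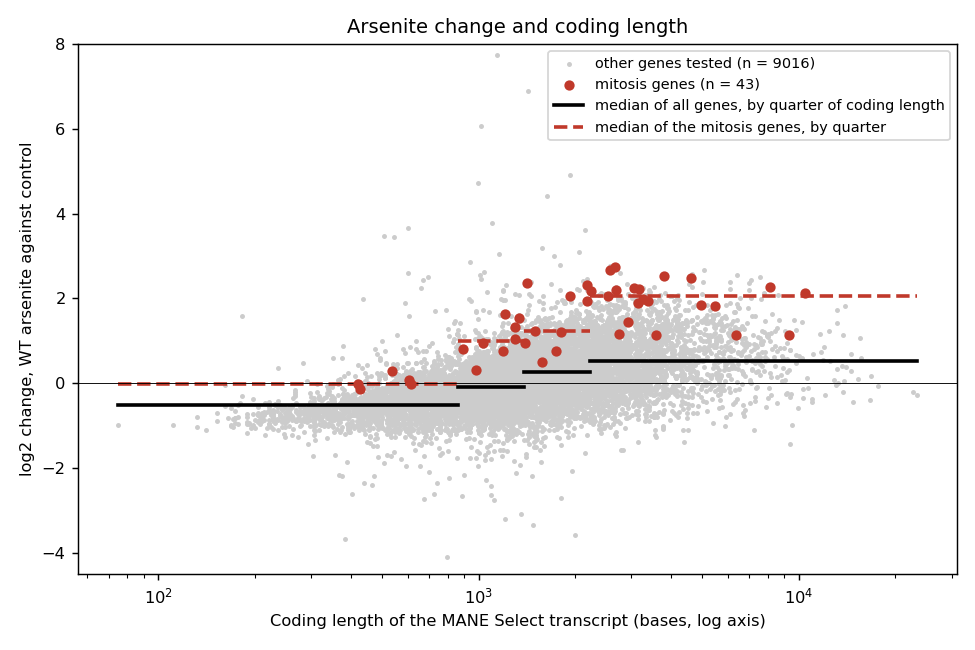
Log2 change of WT arsenite against control (y axis) by coding length (x axis, bases, log axis) for 43 mitosis genes (red) and the other tested genes with a MANE Select transcript (grey). Horizontal lines give medians in 4 parts of equal gene number. The mitosis gene medians (dashed, -0.02 to 2.06) lie above those of all genes (solid, -0.50 to 0.54) in each part.

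In control conditions, the comparison of each mutant with wild-type asks whether the linker mutations went with other levels before stress. In S181E cells 36 of the 43 mitosis genes were higher than in WT cells and none was lower, with a median log2 change of 0.48 and a range of 0.18 to 0.88. Over all genes 15.7% were higher and 15.4% lower. In Y396E cells 38 were higher and none lower, with a median of 0.53 and a range of 0.13 to 0.82 (all genes 14.5% higher and 14.2% lower). The 2 comparisons share the WT control libraries. With a fold above 1.5 in the call, 13 genes were higher in S181E and 16 in Y396E. The shares of all genes above are for a fold above 1.2, and none is given for 1.5.

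NCAPG (ENSG00000109805.10, chr4:17810979-17844865, plus strand) had 38.8, 32.5 and 39.2 CPM in WT control libraries, 66.4, 65.9 and 71.4 CPM in S181E and 58.2, 63.7 and 68.1 CPM in Y396E. Both mutants were above WT in every library, by 0.88 ± 0.09 (adjusted p = 1.56e-08, edgeR) and 0.78 ± 0.09 (adjusted p = 1.24e-07). TPX2 (ENSG00000088325.16, chr20:31739271-31801805, plus strand) had 70.3, 57.7 and 73.2 CPM in WT, 118, 119 and 131 CPM in S181E and 110.3, 123 and 121 CPM in Y396E. Its log2 changes were 0.87 ± 0.07 (adjusted p = 1.65e-10, edgeR) and 0.82 ± 0.07 (adjusted p = 5.63e-10), again without overlap. KIF11 (ENSG00000138160.7, chr10:92574105-92655395, plus strand), the motor that pushes spindle poles apart, had 19.2, 17.5 and 16.8 CPM in WT, 29.7, 29.9 and 31.9 CPM in S181E and 27.0, 32.5 and 31.9 CPM in Y396E. It differed by 0.78 ± 0.08 (adjusted p = 2.43e-08, edgeR) and 0.77 ± 0.08 (adjusted p = 3.19e-08).

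By role, all 5 kinase and survivin genes, all 5 tested spindle assembly genes and all 4 chromosome and cytokinesis genes were higher in both mutants in control conditions. Of the 6 cyclin, CDK1 and CDC25 genes 5 were higher in S181E and 6 in Y396E, and of the 7 kinesins 6 were higher in each. The checkpoint group had 4 of 5 in each and the kinetochore group 3 of 5 in each. CENPE, CENPF, KIF20B, BUB3 and UBE2C were not called in either mutant, at 0.23, 0.18, 0.18, 0.26 and 0.19 in S181E cells. The medians of the mitosis genes in the 4 length parts were 0.32, 0.52, 0.56 and 0.48 in S181E and 0.31, 0.49, 0.55 and 0.53 in Y396E, and rho with coding length was -0.04 and -0.12 over the 43 genes and 0.168 and 0.109 over all 9059. BIRC5, MAD2L1 and CENPA, which were not called in arsenite, were higher by 0.32, 0.44 and 0.52 in S181E control cells. With GC content and coding length regressed out 36 and 38 genes were called in S181E and Y396E. These corrected counts have no share of all genes beside them. The medians were 0.477 and 0.481, against 0.026 and 0.019 over all genes. The parental control library, which takes no part in these tests, was between the WT and S181E control means for 32 of the 43 genes, below the WT mean for 5 and above the S181E mean for 6.

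**Figure D5:**
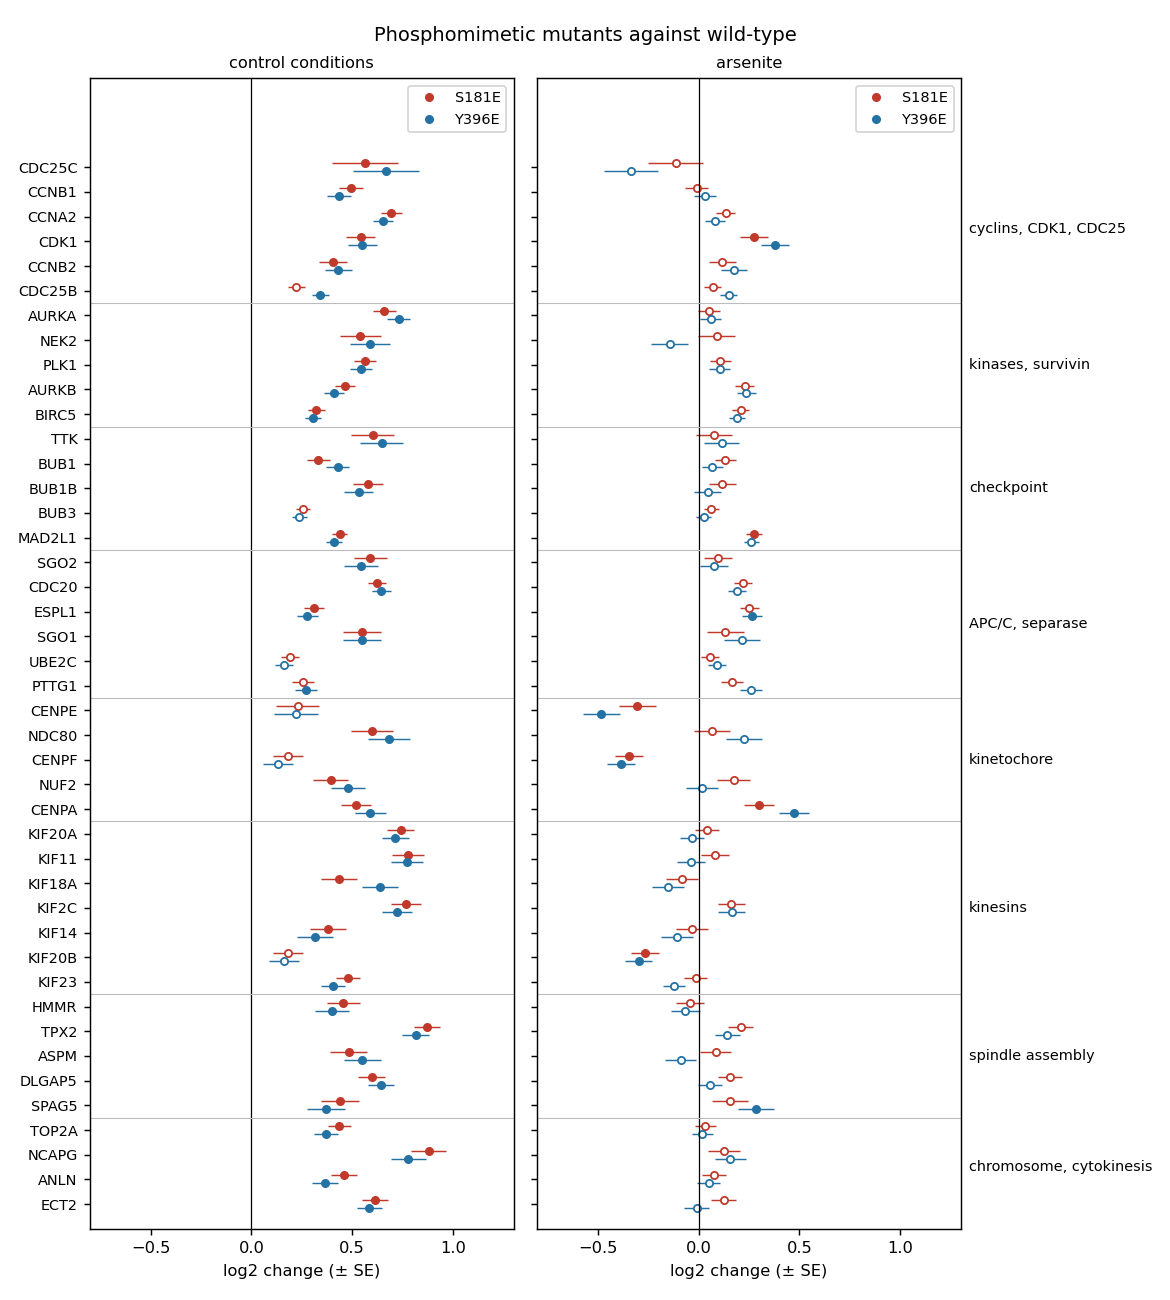
Log2 change of S181E (red) and Y396E (blue) against WT (x axis, ± SE, n = 3 against 3) for the 43 tested mitosis genes (rows, grouped by role), in control conditions (left) and in arsenite (right). Filled points were called, open points were not. All points lie right of 0 in control conditions, from 0.13 to 0.88, and on both sides of 0 in arsenite, from -0.48 to 0.47.

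In the RQ mutant few mitosis genes were called against WT. In control conditions 1 mitosis gene was higher and 1 lower (all genes 1% and 0.429%), with a median of -0.02. ASPM (ENSG00000066279.19, chr1:197084127-197146694, minus strand) had 10.0, 10.2 and 10.5 CPM in WT and 13.6, 11.9 and 14.6 CPM in RQ, and differed by 0.39 ± 0.09 (adjusted p = 0.0203, edgeR). CDC20 (ENSG00000117399.14, chr1:43358981-43363203, plus strand) had 182, 162 and 176 CPM in WT and 147, 140.1 and 145 CPM in RQ, and fell by 0.27 on the log2 scale (SE 0.05, adjusted p = 0.00134, edgeR). The groups did not overlap for either gene, but neither call was kept when only these 6 libraries were fitted (adjusted p = 0.102 for ASPM and 0.0818 for CDC20), or without WT control replicate 1 or 3. In arsenite no mitosis gene was called in RQ against WT by edgeR or DESeq2 (all genes 1.36% higher and 0.154% lower by edgeR), with 2 at an unadjusted p under 0.05 and log2 differences of -0.18 to 0.15.

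In arsenite few mitosis genes were called between the phosphomimetic mutants and WT. In S181E cells 3 were higher than in WT and 3 lower, with a median of 0.10 (all genes 5.32% higher and 8.42% lower). In Y396E cells 4 were higher and 3 lower, with a median of 0.07 (all genes 9.77% higher and 11.9% lower). These shares are of the order of the background, so that these counts do not set the mitosis genes apart. CENPF (ENSG00000117724.15, chr1:214603195-214664571, plus strand), a large kinetochore protein, had 80.4, 82.3 and 76.6 CPM in WT, 63.7, 64.8 and 59.9 CPM in S181E and 60.2, 56.8 and 66.4 CPM in Y396E. It was lower in every mutant library, by -0.35 ± 0.07 (adjusted p = 0.00057, edgeR) and -0.38 ± 0.07 (adjusted p = 0.000131). CENPE had 37.3, 38.1 and 36.7 CPM in WT, 29.9, 28.8 and 32.0 CPM in S181E and 27.5, 27.7 and 25.0 CPM in Y396E, with log2 differences of -0.30 ± 0.09 (adjusted p = 0.0163, edgeR) and -0.48 ± 0.09 (adjusted p = 0.000208). CENPA (ENSG00000115163.15, chr2:26786056-26794589, plus strand) went the other way. It had 30.9, 27.0 and 27.3 CPM in WT, 36.0, 34.9 and 33.6 CPM in S181E and 38.0, 37.1 and 42.7 CPM in Y396E, and was higher by 0.30 ± 0.08 (adjusted p = 0.00504, edgeR) and 0.47 ± 0.07 (adjusted p = 2.87e-05). CDK1 was also higher in both (0.28 and 0.38), MAD2L1 in S181E (0.27), SPAG5 and ESPL1 in Y396E (0.28 and 0.26), and KIF20B lower in both (-0.27 and -0.30).

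The lower members here, CENPE, CENPF and KIF20B, have coding lengths of 8103, 9342 and 5460 bases. ESPL1, with 6360, was higher in Y396E, and ASPM, the longest with 10431, was not called. With GC content and coding length regressed out no mitosis gene was lower in either mutant, and 3 were higher in S181E and 10 in Y396E. No share of all genes is given for these corrected counts, so they do not set the mitosis genes apart. The medians were 0.155 and 0.143, against -0.004 and 0.002 over all genes. CENPF and CENPE were at -0.21 and -0.13 in S181E and -0.19 and -0.24 in Y396E, none of them called. Without Y396E arsenite replicate 3, the library with few genes detected, 1 gene (CENPA) was higher and 3 lower in Y396E. SPAG5, with 82.0, 78.2 and 113 CPM in Y396E against 74.2, 75.6 and 74.4 CPM in WT, was then at 0.10 (adjusted p = 0.188, edgeR), and CDK1 and ESPL1 were at 0.26 and 0.25, under the fold threshold.

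The arsenite response itself, the change within a population, was compared between each mutant and WT with the interaction term of the same fit. In S181E cells 30 of the 43 mitosis genes had a smaller rise than in WT cells and none a larger one, with a median difference of -0.45 on the log2 scale (all genes 6.98% higher and 9.41% lower). In Y396E cells it was also 30 smaller and none larger, with a median of -0.46 (all genes 10.3% higher and 11.1% lower). The RQ response differed from that of WT for no mitosis gene by edgeR or DESeq2, with 2 at an unadjusted p under 0.05, a median of 0.00 and a range of -0.43 to 0.17 (all genes 0.22% higher and 0% lower). The comparisons share the WT libraries and the same libraries as the comparisons above, so the smaller rise restates the higher control level beside the small differences in arsenite. The 43 genes include the 7 that passed the filter on low counts only with the arsenite libraries. No count without those 7 is given, and they are not independent support.

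KIF20A had 32.5, 33.6 and 33.8 CPM in S181E control libraries and 144, 132 and 138 CPM in S181E arsenite libraries, so that it started above WT and reached the range of WT in arsenite. Its response was smaller by -0.70 ± 0.09 (adjusted p = 2.2e-05, edgeR). NCAPG reached 188, 196 and 193 CPM in S181E arsenite libraries against 181.1, 175 and 174 CPM in WT, and its response differed by -0.75 ± 0.12 (adjusted p = 0.000191, edgeR). KIF11 reached 83.5, 86.8 and 92.0 CPM in S181E, 82.3, 85.1 and 74.4 CPM in Y396E and 78.4, 85.3 and 84.4 CPM in WT, and these groups overlapped. The KIF11 response differed by -0.69 ± 0.10 (adjusted p = 0.000144, edgeR) in S181E and -0.81 ± 0.10 (adjusted p = 1.62e-05) in Y396E.

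CDC25C had the largest difference in Y396E cells, at -1.0 ± 0.21 (adjusted p = 0.00207, edgeR). This gene passed the filter on low counts only with the arsenite libraries. It had 8.41, 7.33 and 6.91 CPM in Y396E control libraries and 22.6, 22.4 and 13.0 CPM in Y396E arsenite libraries, of which the third is the library with few genes detected. Without that library the difference was -0.78 (adjusted p = 0.000125). KIF18A (ENSG00000121621.7, chr11:28020619-28108156, minus strand), a motor that dampens chromosome movement, had 36.4, 40.6 and 35.2 CPM in Y396E control libraries and 101, 110.5 and 85.0 CPM in Y396E arsenite libraries, against 24, 23.1 and 24.7 CPM and 103, 114 and 112 CPM in WT. Its response differed by -0.79 ± 0.12 (adjusted p = 8.5e-05, edgeR). Without Y396E arsenite replicate 3 the KIF18A difference was -0.69 (adjusted p = 1.32e-05, edgeR) and that of KIF11 -0.75 (adjusted p = 3.09e-06, edgeR). With GC content and coding length regressed out, 18 genes had a smaller response in S181E, of which 15 were among the 30, and 23 in Y396E, of which 21 were among the 30, and the medians were -0.30 and -0.32. Over all genes the medians were then -0.04 and -0.03. Shares of all genes are not given for the 18 and 23.

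Set against each other, S181E and Y396E had no called mitosis gene, in control or in arsenite, by edgeR or DESeq2, although DESeq2 gave no adjusted p for 8 of them in arsenite (all genes 0% in control and 0% in arsenite by edgeR). At an unadjusted p under 0.05 there were 2 in control and 4 in arsenite. The largest differences were 0.20 ± 0.09 for KIF18A in control and -0.23 ± 0.09 for NEK2 in arsenite, and the median SE over the 43 genes was 0.07 in both.

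Other genes of the cell cycle give the setting. Of 100 tested other mitosis genes, from a list of subunits of the same complexes and their partners, 64 rose and 9 fell in WT cells in arsenite (median 0.55, all genes 36.3% higher and 35.9% lower), among them INCENP, the scaffold of the Aurora B complex (2.6 ± 0.10), and CKAP5, a microtubule polymerase (2.22 ± 0.05). Against WT in control conditions 61 were higher and none lower in S181E (median 0.33), and 53 were higher and 1 lower in Y396E (0.27), where 15.7% and 14.5% of all genes were higher and 15.4% and 14.2% lower. Of 54 tested G1/S and DNA replication genes 32 rose and 4 fell in arsenite in WT cells (median 0.48), led by RRM1, of ribonucleotide reductase (2.07 ± 0.07), MCM2, of the replicative helicase (1.83 ± 0.11), and POLA1, of the primase polymerase (1.73 ± 0.07). In control conditions 49 were higher and 1 lower in S181E (0.41) and 42 higher and 1 lower in Y396E (0.36), beside the same shares of all genes.

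Of 18 tested transcription regulators of mitosis genes 5 rose and 6 fell in WT cells in arsenite (median 0.01), near or below the shares of all genes (36.3% higher and 35.9% lower), with LIN9, a MuvB subunit, at 1.00 ± 0.11, TFDP1 at -0.77 ± 0.04 and E2F4 at -0.61 ± 0.06. FOXM1 fell by 0.28 on the log2 scale in both WT and RQ cells, by 0.39 with S181E and by 0.42 with Y396E, and MYBL2, which encodes B-MYB, fell by 0.40, 0.36, 0.48 and 0.43 in the same order of populations. In control conditions MYBL2 was higher by 0.47 ± 0.06 in S181E and 0.36 ± 0.06 in Y396E, and FOXM1 by 0.36 ± 0.04 in S181E, while FOXM1 in Y396E was at 0.26 ± 0.04, just below the fold threshold. Of 14 tested G2/M inhibitors and checkpoint genes 5 rose and 2 fell in arsenite in WT cells (median 0.15), and the share that rose was that of all genes (36.3%). The largest changes were in CHEK2 (1.14 ± 0.06), SFN (-0.91 ± 0.04) and BTG2 (0.80 ± 0.06). WEE1, the kinase that holds CDK1 inactive, was at 0.00 ± 0.09, and CDKN1A, the p21 inhibitor, at -0.15 ± 0.04. CDKN1A was lower in S181E than in WT cells, by -0.32 ± 0.04 in control and -0.30 ± 0.04 in arsenite, and at -0.24 ± 0.04 in Y396E control cells, under the fold threshold.

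The scaling matters for the sizes of these changes. With library totals alone in place of TMM the median of all genes moved by 0.16 in WT arsenite against control, 0.17 in RQ arsenite against control, 0.16 in S181E and 0.13 in Y396E against WT in control, and -0.11 and -0.10 in the responses of S181E and Y396E. The share of all calls that were higher moved from 50.3 to 61.6% in WT arsenite, from 50.9 to 62.0% in RQ arsenite, from 50.4 to 83.6% and 50.5 to 81.1% in S181E and Y396E against WT in control, and from 42.6 to 13.0% and 48.1 to 18.2% in their responses. For RQ against WT that share went from 70.0 to 38.3% in control and from 89.9 to 77.7% in arsenite, and for S181E against WT in arsenite from 38.7 to 55.9%. On nuclear totals it was 54.8% and 79.8% for RQ against WT in control and in arsenite, and 36.6% for the Y396E response. With library totals alone the median of the mitosis genes was above that of all genes in these 2 comparisons, S181E and Y396E against WT in control, with 43 called higher in S181E and 42 in Y396E control cells, medians of 0.64 and 0.66 against 0.18 and 0.14 over all genes.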

How the data were processed

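Poly(A) RNA from 26 HCT116 dishes was sequenced. The authors aligned reads with STAR 2.7.11b to hg38 and deposited raw read counts per gene from featureCounts (Subread 2.0.6, exons, reverse strand, GENCODE release 46 basic per the file headers), 1 table per sample. Reads on more than 1 gene were unassigned. Symbols came from GENCODE release 44 (99.14% of identifiers). The members, lists and tests were chosen with earlier results of these data known. Named in detail are the member with the largest WT arsenite change in each role and up to 3 called members with the largest change in each other comparison, and of the other lists the 3 called genes with the largest WT arsenite change plus FOXM1, MYBL2, WEE1 and CDKN1A.

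Protein-coding genes above 10 CPM in at least 12 of the 24 engineered libraries were fitted in edgeR 4.0.16 (TMM, quasi-likelihood, 1 mean per group, 16 residual degrees of freedom) and tested on simulated data first. Adjusted p-values are Benjamini-Hochberg over 9099 genes. A call needed adjusted p below 0.05 and a fold above 1.2. SE is the log2 change divided by the square root of F. Parental libraries were not fitted. Dishes were the replicates and no replicate pair had like counts within sampling noise. Depth was 22508145 to 50834401 counts, and intervals cover these dishes only. Coding length and GC content were those of the MANE Select transcript, known for 99.56% of tested genes and all 43 members. Alternatives were DESeq2 1.42.0, other scalings, filters, gene sets and thresholds, a replicate block, and leaving out each library. The GC content and coding length correction and the nuclear totals were added after seeing the data. Promoter sequences came from RefSeq (GRCh38.p14). One result that the naming rule calls for is not reported here.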

Additional observations from a re-analysis of the deposited data

Results flagged for a closer look

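The arsenite response of the mitosis genes differed between populations by the interaction test of edgeR's quasi-likelihood fit, in 30 of 43 genes for S181E against WT and in 30 of 43 for Y396E against WT. Over all genes 6.98% were higher and 9.41% lower for S181E, and 10.3% and 11.1% for Y396E. The named cases in S181E were NCAPG (-0.75), KIF20A (-0.70) and KIF11 (-0.69), and those in Y396E were CDC25C (-1.0), KIF11 (-0.81) and KIF18A (-0.79), all log2 differences from the WT response. Without Y396E arsenite replicate 3, the library with few genes detected, those in Y396E were -0.78, -0.75 and -0.69. Every one of these is a smaller rise in the mutant. The 43 genes include the 7 that passed the filter on low counts only with the arsenite libraries, CDC25C among them. The parental arsenite library, which enters no test, had 0.585% of its counts in the 45 mitosis genes against 0.285% in the parental control library, with no replicate of either.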

How the results depend on the processing

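The counts of called mitosis genes in arsenite against control and in S181E and Y396E against WT in control stayed within 1.5 times of the main count under DESeq2, all scalings, filters and gene sets, and did so without any 1 library (WT 38 to 39, RQ 38 to 39, S181E 36 to 37, Y396E 36 to 37, S181E against WT in control 36 to 38, Y396E against WT in control 37 to 39). With a fold above 1.5 the last pair fell to 13 and 16, and the responses of S181E and Y396E to 7 and 12. Shares of all genes are not given for the counts under alternatives, so these counts speak only to stability. The response counts ranged from 25 to 32 and 29 to 34 when a library was left out, and S181E had 18 with the GC content and coding length correction. The small counts were less stable. RQ against WT in control had 2 calls, 1 with DESeq2, RLE size factors or the composition correction, 0 with only the compared groups or a fold above 1.5, and 0 to 2 without 1 library (0 without WT control replicate 1 or 3, 1 without RQ control replicate 2 or 3). RQ against WT in arsenite had 1 with no fold threshold. S181E against WT in arsenite had 13 with no fold threshold, 0 above 1.5, 3 with the composition correction, and 3 to 6 without 1 library (3 without S181E arsenite replicate 1 or WT arsenite replicate 2). Y396E against WT in arsenite had 14, 0 and 4 to 12 (4 without Y396E arsenite replicate 3, 11 and 12 without its replicates 1 and 2). Y396E against S181E in arsenite had 0 to 1, and the 1 came without Y396E arsenite replicate 2. The cause of these moves was not tested. Of 126 named gene results, none turned direction in 4410 values under alternatives other than the fold above 1.5, and 45 of these lost a call. Same-numbered dishes deviated together with a correlation over 0.1 in 22 of 84 pairs (-0.05 to 0.53), and 23 of 24 libraries were closest to their own number, a hint from the data only. Adding a replicate block gave 39, 38, 36 and 36 in arsenite and 36 and 38 for S181E and Y396E against WT in control, and 31 and 30 for their responses. Of the promoter shares, a window from 100 bases before the start gave 52.0% for TTTGAA, 26% for TTTAAA and 60.0% for CCAAT. Of all promoters in that window, 6.84%, 5.14% and 21.3% had them.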
